A study of Rattus norvegicus with 11 samples.

Results

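The 10 genes set side by side in female and male heart muscle cells of the rat mark successive steps of autophagy and of its mitochondrial form, mitophagy. They are Ulk1, Becn1, Atg5, Atg7, Map1lc3a, Map1lc3b, Gabarapl1, Sqstm1, Bnip3 and Lamp2, picked by name as a pathway list with earlier results of these data known. Each matched 1 row among the 17257 genes of a single deposited table, by its symbol. All 10 had a mean above 0 and were tested by the authors. Myocytes came from the ventricles of wild-type Sprague Dawley rats aged 3 to 4 months, 5 females and 6 males, whose libraries the labels describe as biological replicates. Both sexes were handled alike: cells were freed by perfusion on a Langendorff apparatus, kept on dishes for 45 minutes without treatment and frozen, and total RNA depleted of ribosomal RNA was sequenced. The series set female against male cells to ask how sex relates to gene expression. The values are mean normalized counts per sex, which are gene counts divided by a size factor per library and averaged. Values per library are not part of the table, so group means carry no SD, and an approximate standard error (SE) of each log2 fold change was taken from the size of the change and the authors' p-value. In such bulk samples fewer cells of a type and less RNA per cell cannot be told apart.

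Autophagy delivers parts of the cytoplasm to the lysosome for breakdown. The ULK1 kinase complex starts the process, the Beclin 1 lipid kinase complex marks the site where a membrane sac grows, and a conjugation machinery attaches ATG8 proteins (the LC3 and GABARAP families) to that membrane. Receptors such as p62, the product of Sqstm1, and BNIP3 on mitochondria tie cargo to the ATG8 proteins, and the closed vesicle then fuses with the lysosome. In heart muscle, whose cells are long-lived and rich in mitochondria, the pathway clears worn organelles, and loss of LAMP2 in humans causes Danon disease with a severe cardiomyopathy.

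Of the 10 genes, 5 passed an adjusted p of 0.05 per the authors' deposited table, 3 of them higher and 2 lower in females. The genes that rose were Sqstm1, Map1lc3a and Ulk1, and those that fell were Becn1 and Bnip3. The same rule called 14.5% of all 13346 genes with reads, 6.71% higher and 7.76% lower in females. A call depends on the level, and among the 6841 genes with a mean in the range of the 10 members (206 to 10179 normalized counts) the rule called 23.1%, 10.8% higher and 12.2% lower. Counts of called genes in the pathway lists below are to be read beside these shares. Because the 10 genes and the lists were chosen with earlier results of these data known, such a comparison is no test. The changes were modest. Among the 5 called genes the log2 fold change (female over male) lay between 0.39 and 0.67 in size per the authors' deposited table. The median over all 10 was 0.26, against -0.02 over the genes in the same range of means. By size alone, without regard to direction, the median was 0.38 for the 10 genes and 0.28 for those genes.

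**Figure D1:**
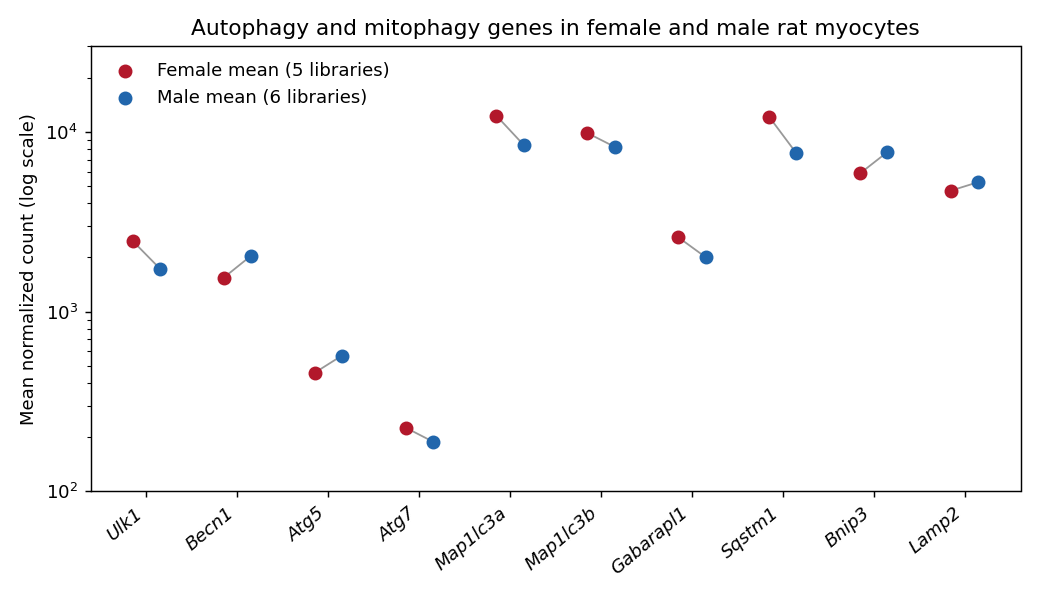
Mean normalized counts of the 10 genes in females (red, left, mean of 5 libraries) and males (blue, right, mean of 6 libraries) on a log scale, with a grey line joining the means of a gene. No error is drawn because the table holds group means only, and counts are not scaled for transcript length, so heights compare the sexes within a gene and not the genes with each other. Sqstm1, Map1lc3a and Ulk1 slope down from the female to the male mean, and Becn1 and Bnip3 slope up.

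**Figure D2:**
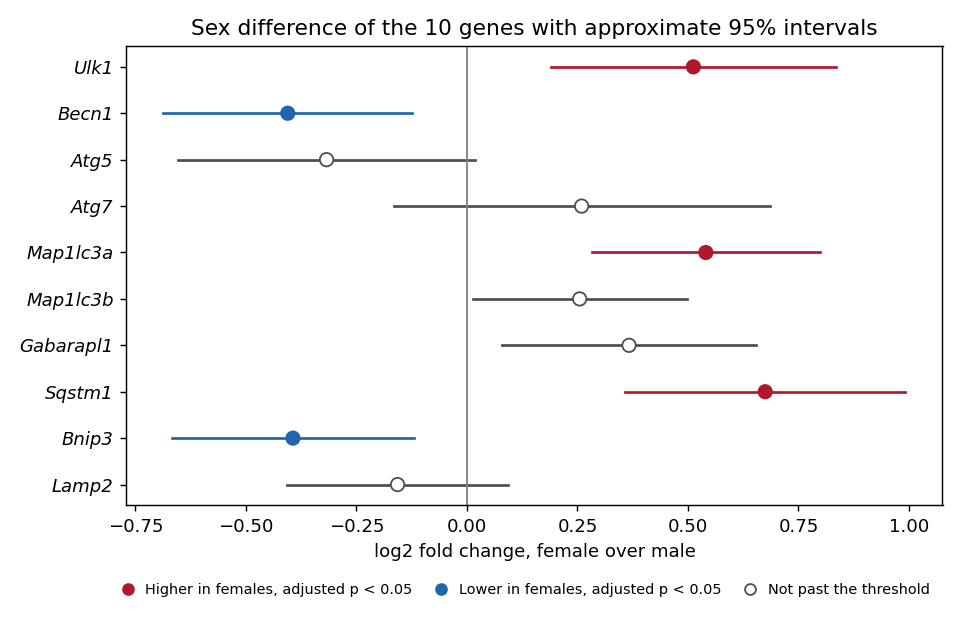
The log2 fold change (female over male) of the 10 genes, in the order of their step in the pathway, with approximate 95% intervals (1.96 SE to each side). Filled red points passed an adjusted p of 0.05 with higher values in females, filled blue points passed it with lower values, and open points did not pass. The intervals of Atg5, Atg7 and Lamp2 include 0, whereas those of Map1lc3b and Gabarapl1 lie above 0 before adjustment for the number of genes.

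At the early steps, Ulk1 was higher in females and Becn1 was lower. Ulk1 encodes the kinase that starts autophagy when nutrients or energy run short. Its mean was 2465 normalized counts in females and 1728 in males per the authors' deposited table, a fold of 1.43 at an adjusted p of 0.0211. The log2 fold change was 0.51 with an approximate SE of 0.16 and an approximate 95% interval from 0.19 to 0.84. Becn1 encodes Beclin 1, the scaffold of the lipid kinase complex that acts next. Its mean was 1542 normalized counts in females and 2043 in males per the authors' deposited table, a fold of 0.755 at an adjusted p of 0.0375. Its log2 fold change was -0.41, with an approximate SE of 0.14 and an interval from -0.69 to -0.12.

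Partners of these proteins moved in both directions as well. Of the 5 genes of the ULK1 complex 2 rose and 1 fell, with a median log2 fold change of -0.03. Atg13, which bridges the kinase to its scaffold, had authors' means of 1657 in females and 1237 in males and adjusted p = 0.0302 per the authors' deposited table. Rb1cc1, which encodes that scaffold (FIP200), had means of 1622 and 2882 in females and males per the authors' deposited table. Its log2 fold change of -0.83 had an adjusted p of 0.0078 there and was the lowest among the measured genes of the 11 pathway lists. The related kinase gene Ulk2 did not pass, with a log2 fold change of -0.40 and adjusted p = 0.0743 per the authors' deposited table. Of 8 measured genes in the list of the Beclin 1 complex and its regulators 1 rose and 1 fell (Becn1), with a median log2 fold change of 0.13. The gene that rose was Ambra1, a binding partner of Beclin 1, with means of 772 in females and 508 in males and adjusted p = 0.0109 per the authors' deposited table. For Pik3c3, the catalytic lipid kinase itself, the log2 fold change was 0.21 at an adjusted p of 0.443 per the authors' deposited table.

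Of 10 measured genes that supply membrane to the growing sac, 3 rose and none fell by the authors' test. A further gene, Tmem41b, whose product is a lipid scramblase, had an unadjusted p of 0.0095 with the lower mean in females, and did not pass (log2 fold change -0.38, adjusted p = 0.0604 per the authors' deposited table). Atg9a encodes a lipid scramblase carried on small vesicles, and Atg2a a lipid transfer protein that works with it. The female mean of Atg9a was 3654 normalized counts and the male mean 2281 per the authors' deposited table, at an adjusted p of 8.3e-04. Atg2a had 1366 in females and 713 in males, a fold of 1.92 at an adjusted p of 9.3e-04 per the authors' deposited table. Zfyve1, whose product DFCP1 marks the membrane from which the sac arises, had a fold of 1.55 and adjusted p = 0.0066 per the authors' deposited table. Wipi1 and Vmp1, of the same list, did not pass either, with log2 fold changes of -0.18 and 0.06 per the authors' deposited table, and were chosen for mention after their values were seen, as was Tmem41b.

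Neither conjugation gene among the 10 passed the threshold. Atg5, part of the complex that places ATG8 proteins on the membrane, had means of 456 in females and 569 in males, a log2 fold change of -0.32 and adjusted p = 0.218 per the authors' deposited table. Its approximate 95% interval ran from -0.65 to 0.02. Atg7, the enzyme that activates ATG8 proteins and ATG12, had means of 226 in females and 189 in males, a log2 fold change of 0.26 and adjusted p = 0.501 per the authors' deposited table. With an approximate SE of 0.22, the largest of the 10, its interval from -0.17 to 0.68 leaves room for a fold from 0.891 to 1.61. In the whole list of 11 conjugation genes 1 rose and 2 fell, with a median log2 fold change of -0.24. The genes that fell were Atg3, the enzyme that transfers ATG8 to lipid, with a log2 fold change of -0.62 (adjusted p = 0.0047), and Atg4a, a protease that trims ATG8 proteins, with -0.71 (adjusted p = 0.0016), per the authors' deposited table. The row read as Atg4a is named there by an older symbol, Atg4al1. Another protease of that family, Atg4d, rose 1.39-fold at an adjusted p of 0.0149 per the authors' deposited table.

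All 3 members of the ATG8 family among the 10 had the higher mean in females, and Map1lc3a alone passed. Map1lc3a, which encodes LC3A, had 12270 normalized counts in females and 8437 in males per the authors' deposited table, a fold of 1.45 at an adjusted p of 0.0020. Its log2 fold change was 0.54, with an approximate SE of 0.13 and an interval from 0.28 to 0.80. Map1lc3b encodes LC3B, the form most used as a marker of autophagosomes. It had 9836 in females and 8243 in males, a log2 fold change of 0.25 at an adjusted p of 0.154 per the authors' deposited table. Its approximate SE was 0.12 and its interval ran from 0.01 to 0.50. Whether Map1lc3a and Map1lc3b differ in their change was not tested. Gabarapl1, of the GABARAP branch that acts late in closure of the vesicle, had 2589 in females and 2008 in males, a log2 fold change of 0.37 at an adjusted p of 0.0713 per the authors' deposited table. Of the other ATG8 genes, Gabarap had a log2 fold change of 0.26 and Gabarapl2 one of -0.24, at adjusted p-values of 0.178 and 0.337 per the authors' deposited table, and neither passed. The RefSeq gene table lists 2 pseudogenes of Map1lc3b, none of them with a row here. The value of Map1lc3b may include reads of such copies or lack reads shared with them, and their likeness was not examined.

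Sqstm1 had the largest change of the 10 genes. Its product p62 binds ubiquitin-marked cargo and LC3 and is itself consumed by autophagy, so that the transcript gives no measure of the flow through the pathway. The mean was 12105 normalized counts in females and 7583 in males per the authors' deposited table, a fold of 1.60 at an adjusted p of 0.0017. Its log2 fold change was 0.67 with an approximate SE of 0.16 and an interval from 0.36 to 0.99. RefSeq lists 1 Sqstm1 pseudogene, without a row here. Among 8 measured cargo receptor genes 2 rose and 1 fell, with a median log2 fold change of -0.08. Wdfy3, a large adaptor for protein aggregates, rose 1.42-fold (adjusted p = 0.0139 per the authors' deposited table). Tax1bp1, another ubiquitin-binding receptor, fell by 0.58 on the log2 scale to a mean of 3032 in females, against 4531 in males, at an adjusted p of 0.0013 per the authors' deposited table. Retreg1, a receptor for endoplasmic reticulum that the table names Fam134b, had means of 15264 and 22207 in females and males per the authors' deposited table. Its log2 fold change of -0.54 had an adjusted p of 0.0545 there and did not pass. Calcoco1 was among the 3911 genes listed at 0, and whether it was expressed cannot be told from such a row.

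Bnip3, the mitophagy member of the 10, was lower in females. It encodes a protein of the outer mitochondrial membrane that binds LC3 and is known as a target of the hypoxia-inducible factor. The female mean was 5864 normalized counts and the male mean 7704 per the authors' deposited table, a fold of 0.761 at an adjusted p of 0.0385. Its log2 fold change was -0.39 with an approximate SE of 0.14 and an interval from -0.67 to -0.12. RefSeq lists 8 pseudogenes of Bnip3 and none has a row of its own, so the value may include or lack reads of such copies. Its close relative Bnip3l (NIX) had means of 1092 in females and 1443 in males and missed the threshold narrowly, with a log2 fold change of -0.40 and adjusted p = 0.0530 per the authors' deposited table. Hif1a, the oxygen-regulated subunit of the hypoxia-inducible factor, fell by 0.47 on the log2 scale at an adjusted p of 0.0184 per the authors' deposited table. Whether the changes of Hif1a and Bnip3 are linked was not tested.

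In the wider mitophagy list of 14 measured genes 1 rose and 3 fell, with a median log2 fold change of 0.09. Beside Bnip3 the genes that fell were March5, a ubiquitin ligase of the outer mitochondrial membrane, and Usp15, a deubiquitinase known in human cells to oppose parkin. Their log2 fold changes were -0.62 and -0.52 at adjusted p-values of 0.0078 and 0.0263 per the authors' deposited table. Fkbp8, a mitochondrial receptor that binds LC3A, rose 1.30-fold at an adjusted p of 0.0408 per the authors' deposited table. Pink1, the kinase that flags damaged mitochondria, had means of 24974 in females and 20649 in males and adjusted p = 0.140 per the authors' deposited table. Parkin, the ubiquitin ligase that Pink1 recruits and the row named Park2, had means of 278 and 266 in females and males at an adjusted p of 0.955 per the authors' deposited table. Neither gene passed.

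**Figure D3:**
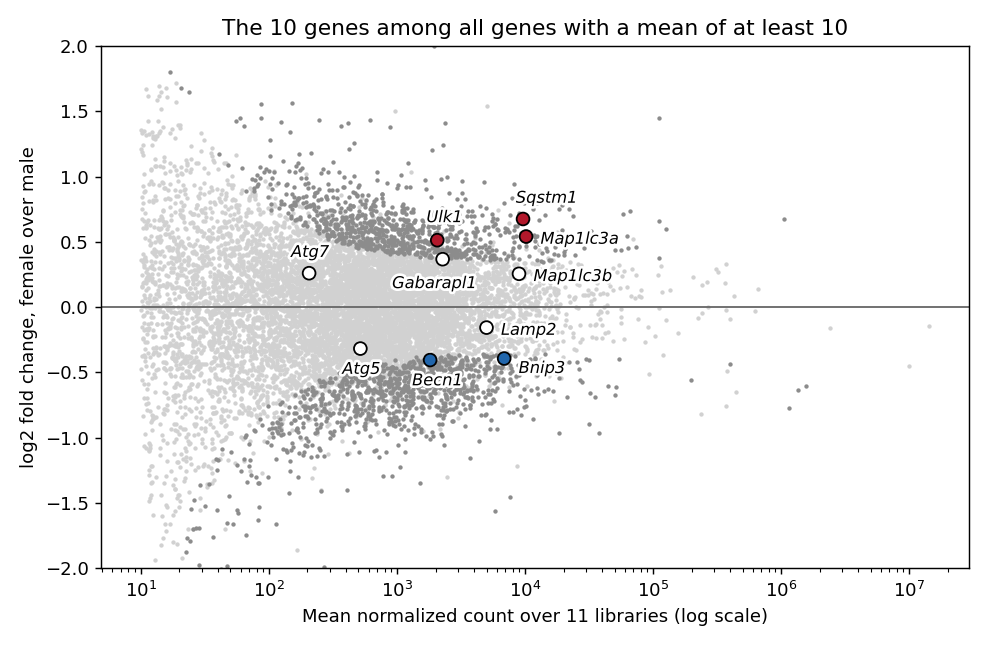
Log2 fold change (female over male) against the mean normalized count over 11 libraries for 10474 genes with a mean of at least 10, called genes in darker grey, and 44 further genes beyond the axis not shown. The 10 members are the large points, red where higher and blue where lower in females by the authors' test, white where not called. Their means cover the range from 206 to 10179, and Becn1 and Bnip3 lie near the edge of the called genes.

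At the lysosomal end, Lamp2 did not pass. Lamp2 is X-linked and encodes a protein of the lysosomal membrane needed for fusion with autophagosomes. It had 4703 normalized counts in females and 5244 in males, a log2 fold change of -0.16 and adjusted p = 0.482 per the authors' deposited table. The approximate interval from -0.41 to 0.09 corresponds to folds from 0.754 to 1.07. Lamp1, its autosomal relative, had a log2 fold change of -0.02 and adjusted p = 0.982 per the authors' deposited table. In the list of lysosomal membrane and fusion genes 1 of 15 measured rose and 1 fell, with a median log2 fold change of -0.02. That is 13.3% called, against 14.5% of all genes with reads and 23.1% of genes in the members' range of means. The mean of Lamp1 lies above that range. Vps18, a core subunit of the tethering complexes for fusion, rose to a mean of 958 in females, against 489 in males, a log2 fold change of 0.97 at an adjusted p of 5.9e-04 per the authors' deposited table. Snap29, a SNARE of autophagosome fusion, fell by 0.46 on the log2 scale at an adjusted p of 0.0194 per the authors' deposited table. Its partner Stx17 had a log2 fold change of -0.51 and adjusted p = 0.0959 per the authors' deposited table.

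Lysosomal hydrolase genes had the highest median of the lists, 0.36 on the log2 scale over 11 genes. Of these, 4 rose and none fell by the authors' test. An unadjusted p under 0.05 was found for 8 of the 11, and the share of all genes at that threshold was not computed. Gaa, the acid glucosidase that breaks down glycogen in lysosomes and is deficient in Pompe disease, had means of 5878 in females and 3609 in males, at an adjusted p of 1.4e-04 per the authors' deposited table. Cathepsin D (Ctsd), a main aspartyl protease of the lysosome, had 12262 in females and 8565 in males, at an adjusted p of 0.0037 per the authors' deposited table. Psap, the precursor of the saposins that assist lipid breakdown, rose 1.41-fold and Ctsa, a protective protease, 1.33-fold, at adjusted p-values of 0.0056 and 0.0326 per the authors' deposited table. The 15 genes of the V-ATPase, the proton pump that acidifies lysosomes, had 1 gene higher and 2 lower, with a median of 0.05. The gene that rose was Atp6v0a1 of the membrane sector V0, with a log2 fold change of 0.44, and those that fell were Atp6v1c1 and Atp6v1d of the catalytic sector V1, with -0.52 and -0.47. Their adjusted p-values were 0.0158, 0.0096 and 0.0079 per the authors' deposited table. Divided by sector after the values were seen, the median was 0.30 over 5 genes of V0 and -0.06 over 8 genes of V1.

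**Figure D4:**
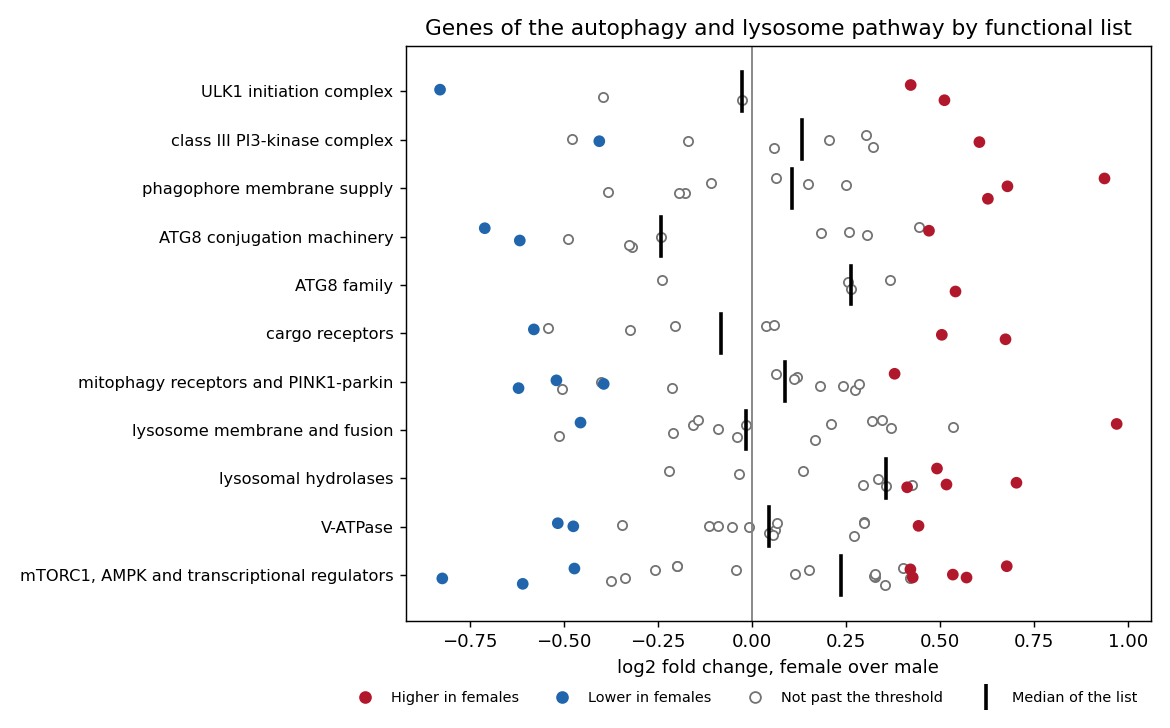
Log2 fold change (female over male) of each measured gene in the 11 pathway lists, members included, with red points higher and blue points lower in females at an adjusted p under 0.05, open points not past the threshold, and a black bar at the median of a list. Points are spread up and down within a row only to separate them. Lysosomal hydrolases and the membrane supply list hold red points and no blue ones, and the other lists except the ATG8 family hold both.

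Regulators of the pathway were called in both directions. Of 22 measured, 5 rose and 3 fell, with a median log2 fold change of 0.24. Tfeb, the transcription factor that switches on lysosomal and autophagy genes, had 886 normalized counts in females and 554 in males, a fold of 1.60 at an adjusted p of 0.0050 per the authors' deposited table. Its relatives Tfe3 and Mitf did not pass, with log2 fold changes of 0.33 and -0.26 per the authors' deposited table. The kinase complex mTORC1 restrains ULK1 and TFEB, and 4 of the 5 genes that rose belong to the complex or to its brake. Mtor, its kinase, had a fold of 1.34 and Rptor, its scaffold, one of 1.35, at adjusted p-values of 0.0259 and 0.0380 per the authors' deposited table. Akt1s1, which encodes an inhibitory subunit, rose 1.45-fold and Tsc2, part of the complex that switches mTORC1 off, 1.49-fold, at adjusted p-values of 0.0052 and 0.0029 per the authors' deposited table. Mlst8 of the complex and Tsc1 of the brake did not pass, with log2 fold changes of 0.35 and -0.04 per the authors' deposited table. The genes that fell were Hif1a and the AMPK subunit genes Prkaa2 and Prkab2. Over the 114 measured genes of the 11 lists other than the 10 members, 19 were higher (16.7%) and 12 lower (10.5%), with a median log2 fold change of 0.07. Over all genes with reads the shares were 6.71% higher and 7.76% lower. Among genes in the range of the 10 members' means they were 10.8% and 12.2%.

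Upstream sequence is shown for the 3 called genes that have an entry in the RefSeq promoter table and for Atg5, which beside Bnip3 was the only one of the members in that table with an E-box. The table (build GRCr8, whereas the reads were handled with rn6) held 8 of the 10 genes. Each sequence gives the 250 bases before the gene start, 5′ to 3′ on the strand of the gene, and capitals mark the E-box CACGTG, the core of sites bound by basic helix-loop-helix factors that include TFEB, and the GC box GGGCGG on either strand.
Ulk1 (chr12:51511242-51511491, + strand): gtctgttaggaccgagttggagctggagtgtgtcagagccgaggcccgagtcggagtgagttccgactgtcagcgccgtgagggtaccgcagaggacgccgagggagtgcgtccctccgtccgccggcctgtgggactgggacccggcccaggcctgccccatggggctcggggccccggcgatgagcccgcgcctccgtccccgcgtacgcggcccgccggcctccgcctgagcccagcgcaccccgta
Sqstm1 (chr10:35037751-35038000, - strand): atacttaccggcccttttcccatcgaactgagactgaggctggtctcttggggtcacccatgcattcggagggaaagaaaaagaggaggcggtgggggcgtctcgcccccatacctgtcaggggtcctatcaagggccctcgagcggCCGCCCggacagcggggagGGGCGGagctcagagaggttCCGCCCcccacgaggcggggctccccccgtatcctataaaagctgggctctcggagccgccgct
Bnip3 (chr1:203154963-203155212, - strand): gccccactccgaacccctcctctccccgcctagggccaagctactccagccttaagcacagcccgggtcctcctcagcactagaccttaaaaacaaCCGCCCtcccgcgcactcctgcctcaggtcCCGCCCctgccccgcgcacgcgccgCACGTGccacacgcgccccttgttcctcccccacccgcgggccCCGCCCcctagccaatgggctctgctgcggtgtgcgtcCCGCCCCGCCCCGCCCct
Atg5 (chr20:49380585-49380834, + strand): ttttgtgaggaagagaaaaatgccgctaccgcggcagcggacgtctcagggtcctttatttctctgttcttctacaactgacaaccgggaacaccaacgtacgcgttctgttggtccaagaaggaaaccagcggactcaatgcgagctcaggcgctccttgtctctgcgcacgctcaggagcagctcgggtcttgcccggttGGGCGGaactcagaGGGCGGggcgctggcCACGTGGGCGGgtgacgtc
The E-box was found in 2 of 8 members, against 5.79% of 27457 promoters of the same length and 7.61% of the 9856 promoters of genes with reads. It begins 99 bases before the start in Bnip3 and 19 bases before it in Atg5, where it shares a base with a GC box. GC boxes were found in 6 of 8 members, against 32.4% of all promoters and 55.7% of those of genes with reads, and Ulk1 and Map1lc3b held none. The longer form TCACGTGA contains the E-box and is closer to the site TFEB prefers. It was in none of the 8, against 0.743% of all promoters and 1.28% of those of genes with reads. The antioxidant response core TGACNNNGC and the forkhead site GTAAACA, searched on both strands, were likewise in none of the 8. They were in 10.2% and 3.25% of all promoters, and in 12.4% and 1.98% of those of genes with reads. Whether the members depart from any of these shares was not tested. Such matches describe letters in a short window and do not show binding.

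Reads per library could be recovered for 2 low-count genes of the wider lists, Atg9b and Atg16l2, and for none of the 10 members. A group mean times the number of libraries adds up whole reads, each scaled by the size factor of its library, and for small sums the digits fix the reads. Atg16l2, a relative of the conjugation factor Atg16l1, had 54.6, 53.4, 70.8, 43.2 and 37.0 normalized reads in the 5 female libraries, against 39.2, 40.7, 34.3, 20.7, 30.5 and 62.9 in the 6 male libraries. The groups overlapped, with 1 male library above all but 1 female library. Its mean was 51.8 ± 12.9 in females (SD, n = 5) and 38.0 ± 14.1 in males (SD, n = 6), with an exact permutation p = 0.130 (two-sided, 462 splits, smallest possible p 0.00216) and 0.260 adjusted over the 2 genes. Atg9b, a paralog of Atg9a, had 0 to 12.3 normalized reads in females and 0 to 8.54 in males, with 2 libraries at 0 in each sex and an exact permutation p = 0.963 (two-sided). The coefficient of variation of Atg16l2 was 24.9% in females and 37.1% in males, a spread that includes counting error at this level.

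Markers of other cells were called in the fibroblast and the endothelial list. The authors' test called 14.5% of all genes with reads and 23.1% of those in the range of the 10 members' means. The cardiac myocyte genes below have means above that range. Of 7 measured fibroblast genes 3 fell and none rose, with a median log2 fold change of -0.52. Col1a2 was listed at 0, and whether it was expressed cannot be told from that. The genes that fell were the collagen genes Col3a1 and Col1a1 and the matrix gene Postn, with log2 fold changes of -1.45, -0.91 and -1.30 per the authors' deposited table. Pdgfra, Dcn, Tcf21 and Lum did not pass, with log2 fold changes of -0.34, -0.52, 0.17 and -0.42 per the authors' deposited table. The summed mean of the list was 8968 normalized counts in females and 18075 in males, to which Col3a1 contributed 3915 in females and 10722 in males. Of 8 endothelial genes Vwf rose and Emcn fell, with log2 fold changes of 0.67 and -0.43 per the authors' deposited table, and the sums were 21607 in females and 21472 in males. For cardiac myocyte genes, all 8 of them measured, Myh6 and Ryr2 rose and 6 did not pass. Atp2a2, Actn2, Tnni3 and Mb had log2 fold changes of 0.33, 0.29, 0.18 and 0.09 per the authors' deposited table. Those of Tnnt2 and Pln were -0.03 and -0.20 there. The female mean was higher for 6 of the 8 myocyte genes, with a median log2 fold change of 0.24 over the list. The summed mean of the 8 genes was 3552075 in females and 2887179 in males, to which Myh6 contributed 1330868 in females and 831771 in males. Among 8 macrophage and leukocyte genes none was called by the authors' test and none had an unadjusted p under 0.05. The female mean was lower for 6 of these 8, with a median log2 fold change of -0.32 and sums of 795 in females and 984 in males. Of 6 smooth muscle and pericyte genes none was called and 5 had the higher mean in females, with a median log2 fold change of 0.30. Only Rgs5 had an unadjusted p under 0.05, with a log2 fold change of -0.46 per the authors' deposited table. The sums were 4258 in females and 4505 in males, to which Rgs5 contributed 1924 in females and 2647 in males. The part of these differences in the values of the 10 genes was not tested.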

How the data were processed

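Total RNA libraries of ventricular myocytes from 5 female and 6 male rats were compared. Per the submitters' processing notes, TopHat2 2.0.12, HTSeq 0.6.1, Trimmomatic 0.32, DESeq and FastQC were used with rn6. Their settings, the annotation and the use of strand are not given in the sources used here. The authors deposited 1 table with mean normalized signal (counts divided by size factors), a fold as a linear ratio, its log2 value, p-values and adjusted p-values. The overall mean equalled 6 parts of group A and 5 of group B in all 13346 genes with reads (relative tolerance 1e-09), and in 0 genes with the parts exchanged, so A was read as male and B as female. The adjusted p matched a Benjamini-Hochberg adjustment within 3.3e-15.

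The authors' test was used as deposited, at an adjusted p under 0.05 over all genes. The approximate SE is the size of the log2 fold change over the normal quantile of the authors' p, checked on simulated data, as was the recovery of reads. The simulated test was given the true spread between libraries, so the check does not cover the authors' estimate of that spread. Reads were searched for list genes with means up to 40 in males and 100 in females (relative tolerance 1.5e-14). Each group gave 1 solution, and for the male mean of Atg16l2, 1 of 20 slightly shifted values also had one. Size factors ran from 0.972 to 1.14 in females and 0.811 to 1.17 in males, and depth per library is unknown. The members and lists were chosen with earlier results of these data known. Beside the 10 members the text names, for each of the 11 pathway lists, up to 4 called genes whose mean was at least 10, in order of rising p, and the gene with the highest mean. Other genes were added after their values were seen. Of 130 pathway genes, 124 were measured, 5 had no row and 1 was listed at 0. Transcript lengths were not used, so levels were not compared between genes. Alternatives covered thresholds, filters, scaling and left-out libraries. Python 3.11.15, pandas 2.3.3 and scipy 1.17.1 were used.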

Additional observations from a re-analysis of the deposited data

Results flagged for a closer look

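A single library stood apart from its group. Atg9b had 12.3 normalized reads in 1 female library, where the next highest female library had 3.52, a gap of 0.714 of the whole female range against a critical value of 0.710. For values with a normal spread, chance marks about 1 in 20 groups in this way, and 4 groups were looked at. The female reads of Atg9b were few, with 2 libraries at 0, so that rate may not hold for them.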

How the results depend on the processing

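At an adjusted p under 0.01, 2 of the 10 genes kept their call (Map1lc3a and Sqstm1) and 17 of the other 114 pathway genes were called, against 5 and 31 at 0.05. With Bonferroni adjustment over all genes these counts were 0 and 1, while 7 of the 10 genes had an unadjusted p under 0.05. With a fold of at least 1.5 required as well, they were 1 (Sqstm1) and 13. At a threshold of 0.1 they were 6, with Gabarapl1 added, and 42. Adjustment over genes with a mean of at least 10 or 50 gave 5 in both cases and 36 and 37. The share over all genes was computed only for the main rule. Counts under the other rules therefore cannot be set against all genes. Every log2 fold change of the 10 genes kept its direction and stayed within its approximate SE under both pseudocounts (1 and 10) and all 3 scalings tried, which shifted all genes by between -0.06 and 0.05. For Atg16l2 the difference (female minus male) ranged from 9.02 to 18.7 normalized reads as each of the 11 libraries was left out, with exact permutation p-values from 0.0238 to 0.286. It passed 0.05 only without the male library with 62.9 (18.7, exact permutation p = 0.0238). For Atg9b the difference of -0.26 ranged from -2.51 to 0.72, with exact permutation p-values from 0.238 to 1. Its sign turned without each of 3 female libraries (0.35, 0.58 and 0.58 without those with 0.905, 0 and 0 normalized reads) and 2 male ones (0.72 and 0.25 without those with 8.54 and 6.16), so no direction is read for it. A count model on recovered reads was not run. No paired analysis was possible because the table holds group means and no value per numbered library. The test itself rests on the authors' fit, which could not be repeated here, and leaving out a library was not possible for the 10 genes.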

Other observations

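AMPK, the energy-sensing kinase that activates ULK1, had 5 subunit genes on the list of regulators, all measured, and its other subunit genes were not examined here. Of these 5, 2 fell in females per the authors' deposited table, none rose and 3 did not pass. The same rule called 7.76% of all genes with reads lower in females and 6.71% higher. Among genes in the members' range of means the shares were 12.2% lower and 10.8% higher. Changes went both ways among the 3 subunit genes that did not pass, so no direction is read for AMPK as a whole. Prkaa2, the catalytic subunit prevalent in heart and skeletal muscle, had means of 3199 normalized counts in females and 5659 in males, a log2 fold change of -0.82 at an adjusted p of 0.0365 per the authors' deposited table. Prkab2, a regulatory subunit, fell by 0.61 on the log2 scale at an adjusted p of 0.0323 per the authors' deposited table. The other catalytic subunit, Prkaa1, had a log2 fold change of -0.34 (adjusted p = 0.107), and Prkab1 and Prkag1 had 0.32 and 0.11 (adjusted p = 0.106 and 0.655), per the authors' deposited table. Among upstream factors, Foxo1 and Foxo3, forkhead factors that induce autophagy genes in muscle, had log2 fold changes of 0.40 and 0.15 at adjusted p-values of 0.0656 and 0.767 per the authors' deposited table. These genes were chosen for mention after their values were seen, apart from Prkaa2.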
